A study of Mus musculus with 8 samples.

Results

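The genes described here encode the phagocyte NADPH oxidase and its GTPases: Cybb, Cyba, Ncf1, Ncf4, Rac1 and Rac2. They were taken as all probe sets whose only gene symbol is one of these 6, which gave 9 of the 22626 probe sets measured, with 2 for Ncf1, 3 for Rac1 and 1 for each of the others. PICALM-rescued cells carried human PICALM cDNA in the MSCVneo retroviral vector, and Picalm-knockout cells carried the empty vector. Both were measured once in each of 4 immortalized lines, named PICALM6A, PICALM6B, PICALM6D and PICALM84 and written here as 6A, 6B, 6D and 84, which gave 8 Affymetrix arrays. All 8 come from fetal liver of Picalm-mutant mouse embryos (fit1 Picalmfit1-5R, strain background B6(Cg)-TyrC-2J/J) at embryonic day 14, so there was no array of cells with their own functional Picalm. All cells also carried the MLL-ENL fusion, delivered by the MSCV-IRES-eGFP vector, and grew with 5 ng/ml interleukin-3 and 50 ng/ml stem cell factor. The selection by serial replating and the viral promoter that drives PICALM limit the lines as a model, and a line is a single immortalized population.

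The phagocyte oxidase moves electrons from NADPH across a membrane onto oxygen, and the superoxide that forms is used to kill microbes. Its catalytic core lies in the membrane, and cytosolic subunits join it together with a Rac GTPase when neutrophils or macrophages are activated. Loss of a subunit causes chronic granulomatous disease. The catalytic subunit, Cybb, and the cytosolic organizers are typical of maturing granulocytes and monocytes, whereas Rac1 is found in nearly all cells and Rac2 mainly in blood cells.

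The deposited values are log2 levels normalized by RMA, and array medians lay close together, from 7.32 to 7.35. Of the hematopoietic progenitor genes examined, Ptprc (the leukocyte antigen CD45) was at 12.22 to 12.54 and Mpo (myeloperoxidase) at 13.92 to 14.12. Flt3, another of them, was at 6.53 to 8.01 in rescued and 6.80 to 9.60 in knockout cells. Lyz2, from the monocyte list, and S100a8, from the neutrophil list, were bright too, with means of 13.42 and 13.64. Each was the brightest of its list, and others of these lists were dim, such as Cx3cr1 (mean 6.65) and Cxcr2 (5.67). Cd3e of T cells was at 6.15 to 6.32 and the globin gene Hba-a1 at 4.90 to 4.97. Hba-a1 was the dimmest of the erythroid list, in which Tfrc was at 12.64 to 13.01 and Klf1 at 5.87 to 8.33. Line 84 stood apart from the other lines, with 14.1% of all probe sets higher and 13.4% lower in it than in the mean of the others (limma, adjusted p under 0.05). Differences between rescued and knockout cells that changed by over 1.5 times without this line are given without it as well for the oxidase genes and the lists. Picalm was not analysed here, so its level does not check the labels.

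Promoters of Cybb, Cyba and Ncf1, the members found in the RefSeq table (build GRCm38.p6), are shown because the levels of Cybb and Ncf1 differed most between the lines. The promoters of Ncf4, Rac1 and Rac2 were not analysed here. Each runs from 250 bases before to 30 bases after the start of the gene, on the minus strand, at chrX:9469295-9469574 for Cybb, chr5:134229596-134229875 for Ncf1 and chr8:122432911-122433190 for Cyba. Capitals mark matches to GAAA followed after any 2 bases by GAAA, the form of element that interferon regulatory factors can bind, and to GAGGAA, the core of sites of the myeloid factor PU.1, in either orientation.
Cybb: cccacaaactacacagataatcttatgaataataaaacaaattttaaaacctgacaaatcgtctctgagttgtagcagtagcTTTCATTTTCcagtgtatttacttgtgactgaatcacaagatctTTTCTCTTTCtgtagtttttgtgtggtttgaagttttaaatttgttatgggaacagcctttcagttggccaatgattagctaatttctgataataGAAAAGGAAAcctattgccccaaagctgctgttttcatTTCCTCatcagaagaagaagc
Ncf1: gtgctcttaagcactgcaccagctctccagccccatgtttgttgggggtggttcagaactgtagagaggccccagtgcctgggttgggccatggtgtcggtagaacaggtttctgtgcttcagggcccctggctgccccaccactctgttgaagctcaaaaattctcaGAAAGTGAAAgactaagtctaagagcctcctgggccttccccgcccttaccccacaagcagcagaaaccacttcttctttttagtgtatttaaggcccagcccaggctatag
Cyba: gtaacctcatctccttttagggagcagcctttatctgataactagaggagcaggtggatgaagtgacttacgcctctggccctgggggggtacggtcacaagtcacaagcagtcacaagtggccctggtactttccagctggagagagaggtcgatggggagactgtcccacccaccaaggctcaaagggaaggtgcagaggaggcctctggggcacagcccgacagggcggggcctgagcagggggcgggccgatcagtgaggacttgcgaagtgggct
The Cybb promoter held 3 matches to this interferon-type element, starting 168, 124 and 29 bases before the gene start, and 1 to GAGGAA, starting 9 bases after it. Ncf1 had a single match to it, 82 bases before the start, and Cyba had no match to either. Among 32851 RefSeq promoters cut to the same length, 3.28% held the interferon-type element and 26.0% held GAGGAA. The letters TATAAA, the TATA box, were in none of the 3 promoters and in 13.1% of all. The motifs did not overlap one another, and a match is a description of letters, not a bound site.

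To ask whether PICALM affected the oxidase genes, PICALM-rescued and Picalm-knockout arrays were compared in pairs, line by line, with limma over all 22626 probe sets. Cyba, Ncf4, Rac2, the brighter Ncf1 probe set and both bright Rac1 probe sets were brighter on each PICALM-rescued array than on its paired Picalm-knockout array, by 1.07-fold to 1.20-fold, and Cybb and the other 2 probe sets were higher in 2 lines each. None of the 9 passed an adjusted p of 0.05, and their lowest adjusted p was 0.308, for Ncf4. Over all probe sets, 0% were called higher and 0.0177% lower. The count of 6 of 9 higher in all 4 lines stands beside 12.0% of all probe sets, and 0 of 9 were lower in all 4, beside 11.8%. Without line 84, 6 of 9 were higher in all 3 lines, against 19.9% of all probe sets. Without adjustment, Cyba, Ncf4 and Rac2 had a p under 0.05, 3 of 9 on the higher side against 6.17% of all probe sets, and the count was also 3 without line 84, against 7.44% of all. The median log2 difference of the 9 was 0.11, against 0.00 over all probe sets. In RNA of a whole culture, fewer cells with a transcript and less of it per cell cannot be told apart.

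**Figure D1:**
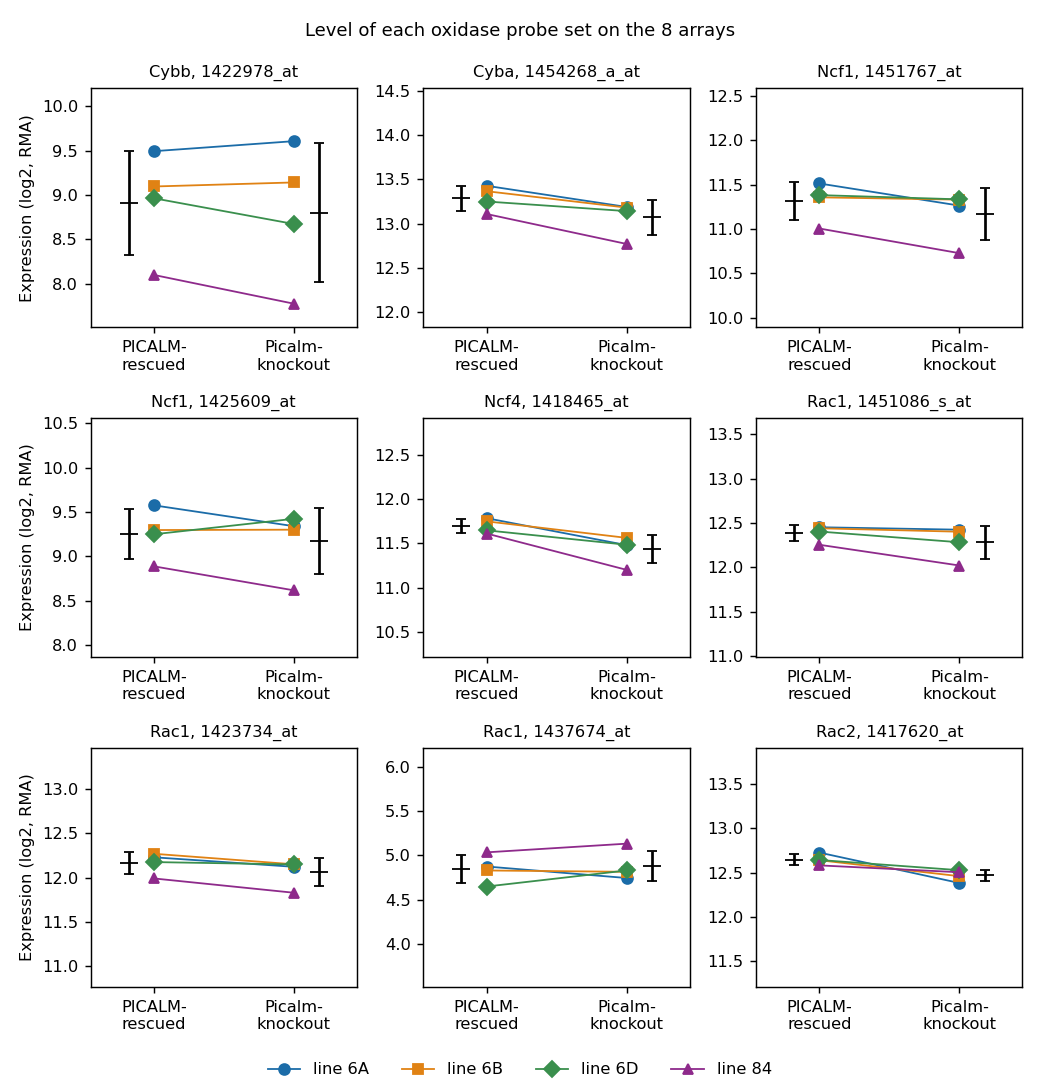
Log2 expression (y axis, RMA) of each of the 9 probe sets on the PICALM-rescued and Picalm-knockout array of lines 6A, 6B, 6D and 84, joined by line, with the group mean and SD (n = 4) as a black bar. All panels span the same range of log2 units, and line 84 (triangles) lies below the other lines for Cybb, Cyba, Ncf1 and the bright Rac1 probe sets.

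Cybb encodes the catalytic subunit, which holds the flavin and the hemes through which electrons pass. Its log2 level was 9.49, 9.09, 8.96 and 8.10 in the PICALM-rescued arrays of lines 6A, 6B, 6D and 84, against 9.61, 9.14, 8.67 and 7.77 in the Picalm-knockout arrays. The groups overlapped almost fully, and the spread between lines was larger than any difference within a line. The mean was 8.91 ± 0.59 (SD, n = 4) in rescued cells and 8.80 ± 0.78 in knockout cells, a log2 difference of 0.11 with a 95% interval of -0.11 to 0.34 (limma, adjusted p = 0.622). Without line 84 the difference was 0.04. Lines 6A and 6B differed by -0.11 and -0.05, and lines 6D and 84 by 0.29 and 0.32. Cybb is thus a member without a shared direction. An exact test over the 16 sign changes of the 4 paired differences gave a two-sided p of 0.5.

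Cyba encodes the small membrane subunit that stabilizes the catalytic one and docks the cytosolic organizer. It was at 13.43, 13.37, 13.25 and 13.11 in rescued cells (6A, 6B, 6D, 84) and at 13.19, 13.18, 13.14 and 12.77 in knockout cells. Each rescued array lay above the knockout array of its own line, and only the rescued array of line 84 fell below knockout arrays of other lines. The log2 difference was 0.22 (standard error 0.05, 95% interval 0.09 to 0.35), or 1.16-fold, with an adjusted p of 0.318 in limma. Without line 84 it was 1.13-fold, and the groups no longer overlapped. Unlike Cybb, its partner in the membrane, Cyba had a paired difference above 0 in every line, from 0.11 in line 6D to 0.34 in line 84. The difference between the 2 genes was not tested.

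**Figure D2:**
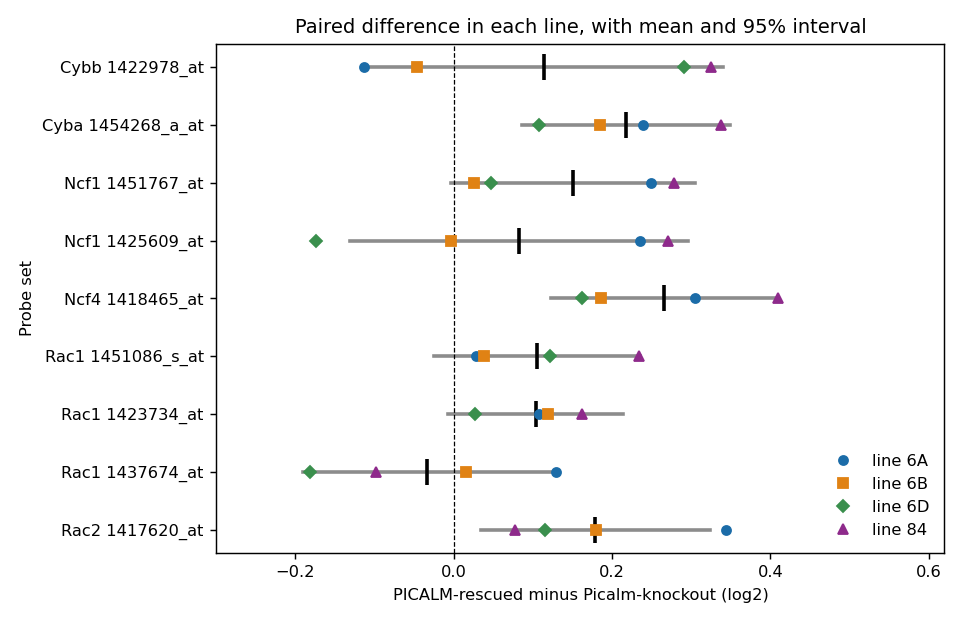
Difference in log2 expression, PICALM-rescued minus Picalm-knockout (x axis), for the 9 probe sets (y axis), with a point for each line, a black tick for the mean and a grey bar for the 95% interval of limma. The intervals of Cyba, Ncf4 and Rac2 lie above 0 before adjustment, and the points of Cybb lie on both sides of 0.

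Of the cytosolic subunits, Ncf4, which binds a phosphoinositide of phagosome membranes, had the largest difference among the 9 probe sets. Its level was 11.78, 11.75, 11.65 and 11.61 in rescued cells (6A, 6B, 6D, 84) and 11.48, 11.56, 11.48 and 11.20 in knockout cells. Every rescued array lay above every knockout array, the lowest rescued at 11.61 and the highest knockout at 11.56. The means were 11.70 ± 0.08 (SD, n = 4) in rescued cells and 11.43 ± 0.16 in knockout cells, a fold of 1.20 with a log2 difference of 0.27 and a 95% interval of 0.12 to 0.41 (limma, adjusted p = 0.308). The fold was 1.16 without line 84. An exact permutation test over 70 arrangements, which sets the pairing aside, gave a two-sided p of 0.0286, the smallest it can give. Any complete separation of the groups gives this value, so the test only restates it. The arrays of a line are also not independent, as the test assumes. For the probe sets whose groups overlapped, the same test gave p values from 0.143 for Cyba to 0.8 for Cybb. Complete separation was seen in 2 of the 9 probe sets, those of Ncf4 and Rac2, against 1.88% of all probe sets, and the opposite one in 0 of 9, against 1.57%. Without line 84 it was seen in 5 of the 9, against 9.34% of all, and the others were Cyba, the brighter Ncf1 probe set and a Rac1 probe set (1423734_at).

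Ncf1 encodes the organizer that carries the cytosolic subunits to the membrane, and it was read by 2 probe sets. The brighter one (1451767_at) was at 11.51, 11.36, 11.38 and 11.00 in rescued cells (6A, 6B, 6D, 84) and at 11.26, 11.33, 11.33 and 10.73 in knockout cells. In lines 6A and 84 the rescued array was above the knockout array by 0.25 and 0.28, while in lines 6B and 6D the arrays differed by 0.03 and 0.05. The mean fold was 1.11 (log2 difference 0.15, 95% interval -0.00 to 0.30, limma, adjusted p = 0.409). The dimmer one (1425609_at) was at 9.57, 9.30, 9.25 and 8.89 in rescued cells and at 9.34, 9.30, 9.42 and 8.62 in knockout cells, a fold of 1.06 with an adjusted p of 0.709 in limma. Its log2 difference was 0.08, and 0.02 without line 84. The 2 probe sets thus shared the size in lines 6A and 84. In line 6B both differed by little, 0.03 for the brighter and -0.00 for the dimmer one. Line 6D gave opposite signs, 0.05 and -0.17. Both carry the same annotated sequence accession.

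Rac1 and Rac2 are the small GTPases that switch the assembled oxidase on, and Rac2 is the form on which neutrophils chiefly rely. Rac2 was at 12.73, 12.64, 12.64 and 12.58 in rescued cells (6A, 6B, 6D, 84) and at 12.38, 12.46, 12.53 and 12.50 in knockout cells. All rescued arrays lay above all knockout arrays, which fixes the p of the exact permutation test without pairing at 0.0286 (two-sided). The fold was 1.13, with a log2 difference of 0.18, a 95% interval of 0.03 to 0.32 and an adjusted p of 0.351 in limma. The order of the lines differed from that for Cyba and Ncf4, which had their largest difference in line 84: for Rac2 it was largest in line 6A (0.34) and smallest in line 84 (0.08). In 7 of the 9 probe sets, all but that of Rac2 and the dim one of Rac1, the largest difference in size was that of line 84, which holds for 44.2% of all probe sets.

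For Rac1, the bright probe set 1451086_s_at was at 12.45, 12.44, 12.40 and 12.25 in rescued cells (6A, 6B, 6D, 84) and at 12.42, 12.40, 12.28 and 12.02 in knockout cells. The other bright one, 1423734_at, was at 12.23, 12.27, 12.17 and 11.99 in rescued cells and at 12.12, 12.15, 12.15 and 11.83 in knockout cells. Both gave small differences of one sign, 1.08-fold and 1.07-fold, with intervals that reached 0 (limma, adjusted p = 0.465 and 0.419). Without line 84 the log2 difference of 1451086_s_at was 0.06 in place of 0.11. The suffix s of the first marks, in the array's naming, probes that can match more than a single transcript. The remaining Rac1 probe set (1437674_at) lay in the dimmest part of the array, at 4.65 to 5.03 in rescued cells and 4.75 to 5.13 in knockout cells, brighter than only 16.1% of probe sets. Its differences had both signs, with a mean of -0.03 (limma, adjusted p = 0.851), or -0.01 without line 84. For the brightest probe sets of Cyba, Ncf1, Ncf4, Rac1 and Rac2, the exact sign-change test gave p = 0.125, the smallest that 4 pairs allow.

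For Cybb, Cyba, Ncf1 and Rac1, but not for Ncf4 and Rac2, the distance of line 84 from the other lines was larger than the difference between rescued and knockout cells. Line 84 was set against the mean of lines 6A, 6B and 6D in the same fit, a comparison chosen because this line was already known to stand apart. Of the 9 probe sets, 6 were lower in line 84 at an adjusted p under 0.05 (13.4% of all probe sets), those of Cybb, Cyba, both of Ncf1 and the bright ones of Rac1, and the dim Rac1 probe set was higher (14.1% of all). Cybb was 1.23 log2 units lower in line 84 (standard error 0.11, limma, adjusted p = 0.00174). The Ncf1 probe sets were lower by 0.50 (adjusted p = 0.0075) and 0.61 (0.0103), Cyba by 0.32 (0.0162) and the bright Rac1 probe sets by 0.26 (0.0277) and 0.27 (0.0156), while Ncf4 differed by -0.21 (0.0653) and Rac2 by -0.02 (0.846). A line is not replicated, so these p-values compare 2 arrays of a single line with 6 arrays of others. The count of 7 called was 3 with array weights or without line 6B, and Cybb and both Ncf1 probe sets were called in each of the alternatives run. Over all probe sets the count fell from 6217 to 2913 with array weights and to 3482 without line 6B.

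**Figure D3:**
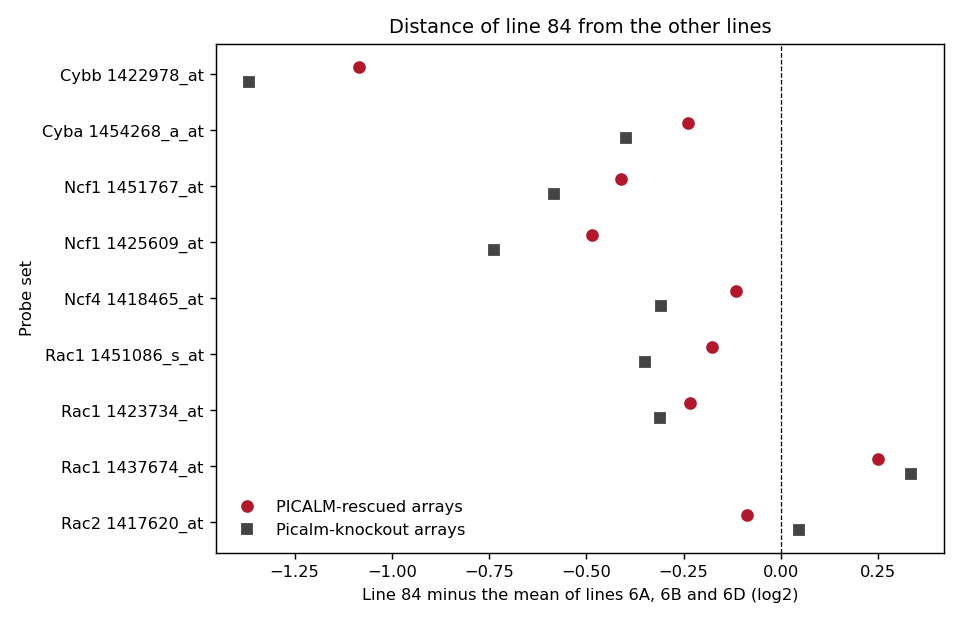
Level in line 84 minus the mean of lines 6A, 6B and 6D (x axis, log2) for the 9 probe sets (y axis), separately for PICALM-rescued (circles) and Picalm-knockout arrays (squares). Cybb lies farthest to the left, at -1.09 in rescued and -1.37 in knockout arrays, and Rac2 lies near 0.

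Except for Rac2, the distance of line 84 from the others was smaller among rescued than among knockout arrays, a difference that was not tested. It follows from the line differences given above and is not a separate result. How often it holds over all probe sets was not counted. The distance was -1.09 in rescued and -1.37 in knockout arrays for Cybb, and -0.41 and -0.58 for the brighter Ncf1 probe set. For Ncf4 it was -0.12 in rescued and -0.31 in knockout arrays. In its own order of lines, Cybb was highest in 6A (line mean 9.55), then 6B (9.12), 6D (8.82) and 84 (7.94), and the arrays of neighbouring lines did not overlap. For Cyba, Ncf1 and the bright Rac1 probe sets neighbouring lines among 6A, 6B and 6D overlapped and line 84 lay below all of them, and for Ncf4 and Rac2 all neighbours overlapped. An F test over the 4 lines called Cybb (limma, adjusted p = 0.00747) and the brighter Ncf1 probe set (0.0396), 2 of the 9 against 10.8% of all probe sets.

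Markers of several cell types differed in line 84 as well. Of 11 measured monocyte and macrophage genes, 7 were lower and 1 was higher in line 84 at an adjusted p under 0.05 in limma (13.4% and 14.1% of all probe sets). The mean of these genes ran from 9.20 to 10.05 in rescued and from 9.15 to 10.08 in knockout cells. The lower ones were Mrc1, Cd14, Ccr2, Cd68, Csf1r, Marco and Lyz2, and Cd14, a receptor for bacterial lipopolysaccharide, was 1.29 log2 units lower. Interferon response genes went the other way, with 9 of 15 higher in line 84 and 0 lower (14.1% and 13.4% of all probe sets). Their mean was 7.25 in the rescued and 9.38 in the knockout array of line 84, against 6.22 to 6.39 in the rescued and 6.19 to 6.34 in the knockout arrays of the other lines. Mast cell and basophil genes were higher as well, 4 of 9 with 0 lower and a median of 1.11 log2 units, among them Cpa3, a mast cell protease, by 4.18, Mcpt8, a basophil protease, by 3.85 and the transcription factor Gata2 by 2.77. The mean of this list was 8.92 in the rescued and 7.55 in the knockout array of line 84, against 6.13 to 7.01 in the rescued and 5.95 to 6.14 in the knockout arrays of the other lines. Of 6 eosinophil genes 2 were higher and 0 lower, with a median of 2.09. Their mean was 7.83 in the rescued and 5.66 in the knockout array of line 84. In the other lines it was 4.81 to 5.22 in rescued and 4.69 to 4.83 in knockout arrays. Of 11 neutrophil granule genes, 1 was higher and 1 lower in line 84, with a median of -1.26. Of 9 progenitor genes 4 were higher and 3 lower, of 6 erythroid genes 3 and 0, and of 6 lymphoid genes 0 and 0. These counts stand beside the same 14.1% and 13.4% of all probe sets. The part of these cell types in the levels of the oxidase genes in line 84 was not tested.

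**Figure D4:**
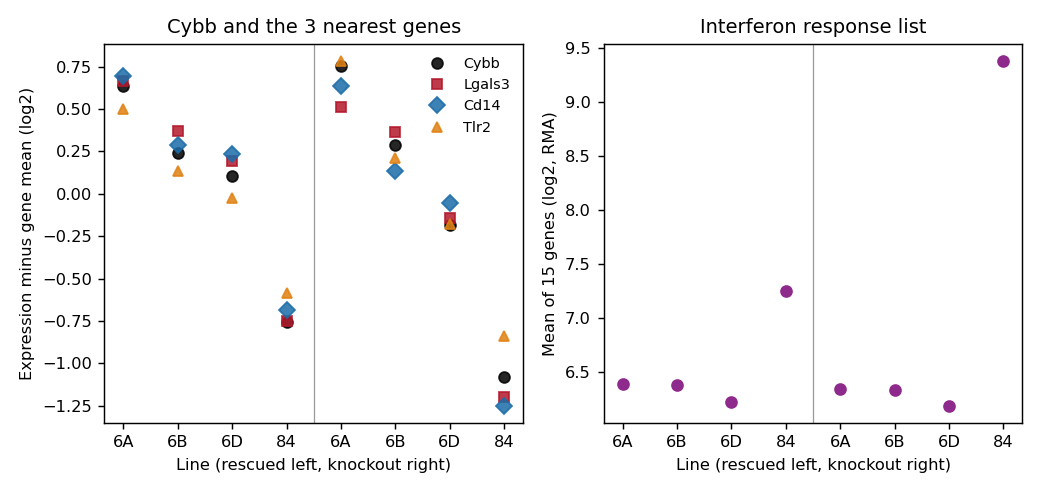
Left, log2 level minus the gene's mean (y axis) of Cybb and the 3 genes nearest to it in pattern on the 4 rescued (left) and 4 knockout arrays (right) of lines 6A, 6B, 6D and 84 (x axis). Right, mean log2 level of 15 interferon response genes on the same arrays, which is highest in the knockout array of line 84, where Cybb is lowest.

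The genes whose pattern over the 8 arrays was most like that of Cybb were Lgals3, which encodes a galectin abundant in macrophages, Cd14 and Tlr2, a receptor for bacterial lipoproteins. Likeness was measured over 12392 genes as the root mean square distance between mean-centred log2 levels, which was 0.11 for Lgals3, 0.12 for Cd14 and 0.13 for Tlr2, against an SD of 0.64 for Cybb itself. The 2 arrays of a line share their cells of origin, so the 8 points are not independent. Cybb had the largest SD over the arrays of the 6 genes, and Rac2, at 0.11, was the only one under the median SD of all genes, 0.12.

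Of 11 measured markers of neutrophil granules, 7 were higher in rescued cells in all 4 lines (12.0% of all probe sets), with a median log2 difference of 1.54, which was 0.905 without line 84, and none passed adjustment in limma. Camp, an antimicrobial peptide of secondary granules, differed by 2.33 and Ltf, lactoferrin, by 1.54 on the log2 scale. The list mean ran from 9.73 to 11.05 in rescued cells and from 7.80 to 9.32 in knockout cells. Its line differences were 1.99, 0.85, 0.41 and 2.02 in lines 6A, 6B, 6D and 84, larger in lines 6A and 84 than in lines 6B and 6D. Those of Cyba, Ncf4 and both Ncf1 probe sets had this order, and those of Cybb, Rac2 and the Rac1 probe sets did not. How many of all probe sets have it was not counted. Of 9 mast cell and basophil genes, 5 were higher and 1 was lower in all 4 lines (12.0% and 11.8% of all probe sets), with a median of 0.77 that was 0.33 without line 84, and Cpa3 gave a fold of 3.78 (limma, adjusted p = 0.31). The mean of this list ran from 6.13 to 8.92 in rescued and from 5.95 to 7.55 in knockout cells. Cd34, a surface protein of progenitors, was lower with PICALM in all 4 lines, by a log2 difference of -1.25 (limma, adjusted p = 0.261), while the median of the 9 progenitor genes was 0.04. The monocyte and macrophage list had a median of -0.13, which turned to 0.03 without line 84, with 3 of 11 higher and 2 lower in all 4 lines (12.0% and 11.8% of all probe sets). The part of these markers in the differences of Cyba, Ncf4 and Rac2 was not tested.

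Other genes of the pathway were taken from 6 lists, with the brightest probe set of each gene, and none of their measured genes passed an adjusted p of 0.05 in limma. Among 7 other oxidase subunits and isoforms, Hvcn1, the proton channel that balances the charge moved by the oxidase, stood out. It was at 10.71, 10.63, 10.39 and 9.84 in rescued cells (6A, 6B, 6D, 84) and at 10.01, 10.27, 10.17 and 8.58 in knockout cells. Each line had more in rescued cells, the groups overlapped, and the fold was 1.55 (limma, adjusted p = 0.328). Noxo1 and Duoxa1, partners of oxidases outside phagocytes, and Nrros, which in mice lowers the amount of the Cybb protein, differed by 0.07, 0.10 and -0.05 on the log2 scale. Cybc1, a chaperone of the membrane core, differed by 0.00 and was chosen after its value was seen.

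**Figure D5:**
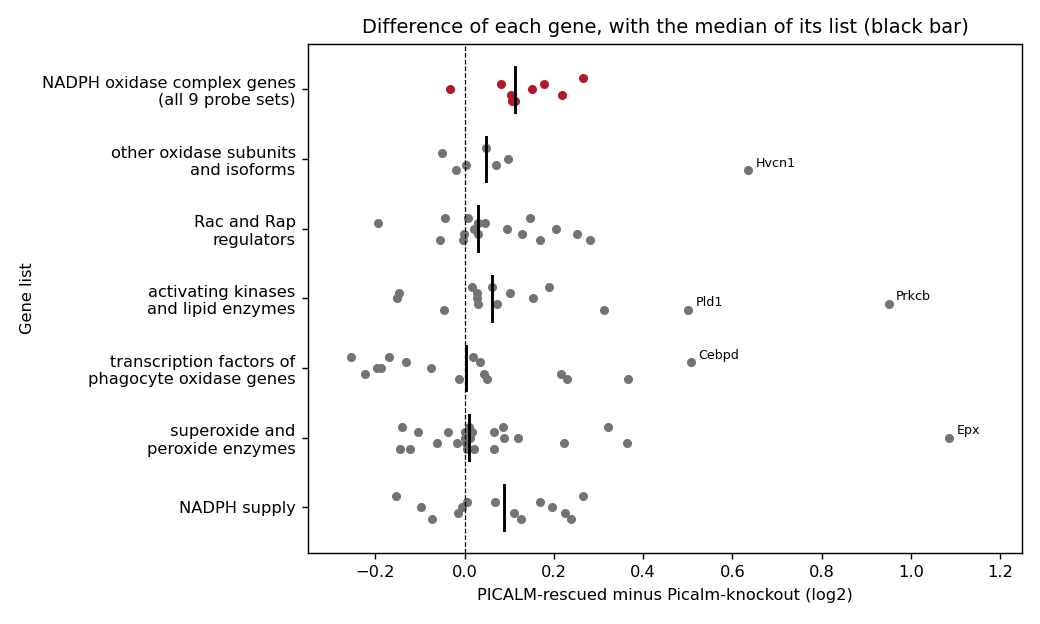
Log2 difference, PICALM-rescued minus Picalm-knockout (x axis), of each probe set or gene, as points, in the oxidase genes and 6 lists of related genes (y axis), with the median of each list as a black bar and names at differences above 0.45. The median of the oxidase probe sets, among which Rac1 and Ncf1 count more than once, is 0.11. It lies to the right of the medians of the other lists (brightest probe set of each gene), which run from 0.00 to 0.09.

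Regulators of Rac and related GTPases held 17 measured genes, of which 4 had an unadjusted p under 0.05 on the higher and 1 on the lower side (6.17% and 6.32% of all probe sets). Tiam1, an exchange factor that loads Rac with GTP, was at 10.53 ± 0.15 (SD, n = 4) in rescued and 10.25 ± 0.19 in knockout cells, 1.22-fold (limma, adjusted p = 0.254). Rhog, a GTPase that acts upstream of Rac, and Dock5, another exchange factor, gave folds of 1.19 and 1.15. Bcr, whose GTPase-activating domain turns Rac off, had a log2 difference of -0.19 and was lower with PICALM in all 4 lines. The median difference of the list was 0.03, and 0.05 without line 84.

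Of 15 kinases and lipid enzymes that activate the oxidase, 2 had an unadjusted p under 0.05, both on the higher side (6.17% of all probe sets). Prkcb, a protein kinase C that phosphorylates the Ncf1 protein, was at 10.67, 10.17, 10.18 and 10.36 in rescued cells (6A, 6B, 6D, 84) and at 9.53, 9.37, 10.05 and 8.63 in knockout cells. Every rescued array exceeded every knockout array, and the fold was 1.93 (limma, adjusted p = 0.32). Plcb2, a phospholipase C that acts after G-protein coupled receptors, gave a fold of 1.24, and Pla2g4a, which releases arachidonic acid, and Prkca gave log2 differences of -0.15 each. The list had a median of 0.06, which was 0.03 without line 84.

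Of 16 transcription factors known to act on phagocyte oxidase genes, 2 had an unadjusted p under 0.05 on the higher and 3 on the lower side (6.17% and 6.32% of all probe sets), with a median of 0.0026, and 0.0047 without line 84. Spi1, which encodes PU.1, was at 11.51, 11.44, 11.43 and 11.10 in rescued cells (6A, 6B, 6D, 84) and at 11.19, 11.31, 11.29 and 10.76 in knockout cells. It was brighter with PICALM in all 4 lines, by 1.17-fold (limma, adjusted p = 0.318), and 0.43 log2 units lower in line 84 than in the others (adjusted p = 0.00876). Cebpd, a factor of granulocytes and macrophages, gave a fold of 1.42, while Elf1, an ETS factor, and Jun gave log2 differences of -0.22 and -0.20. Irf1 and Irf8, named after their values were seen, differed by -0.25 and -0.13, and Irf1 was 0.84 log2 units higher in line 84 (limma, adjusted p = 0.00628).

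Enzymes that use or remove superoxide and peroxide differed little, with 2 of 24 higher and 2 lower at an unadjusted p under 0.05 (6.17% and 6.32% of all probe sets) and a median of 0.01, which turned to -0.0089 without line 84. Gsr, glutathione reductase, which itself consumes NADPH, gave a fold of 1.29. Its log2 difference was 0.87 in line 84, against 0.27, 0.20 and 0.12 in lines 6A, 6B and 6D. Mpo, which turns peroxide into hypochlorous acid, gave a fold of 1.09. Epx, eosinophil peroxidase, lay at 4.54 to 8.66 in rescued and 4.56 to 4.78 in knockout cells, with its high value in the rescued array of line 84 alone, and was named after its values were seen. Prdx2, a peroxiredoxin, and Txnrd1, thioredoxin reductase, had log2 differences of -0.15 and -0.10. In the list of NADPH supply, 4 of 14 were higher and 1 was lower at an unadjusted p under 0.05 (6.17% and 6.32% of all probe sets), and all 4 lines had 6 genes higher and 1 lower (12.0% and 11.8%). This list had a median of 0.09, or 0.05 without line 84. Pgd and H6pd, enzymes of the pentose phosphate route that make NADPH, gave folds of 1.18 and 1.17, and Rpia and Rpe, which act on its sugars, 1.15 and 1.12.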

How the data were processed

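RNA of 4 PICALM-rescued and 4 Picalm-knockout cultures was measured on Affymetrix mouse arrays. The labels name the A version of the array, which the table fits, and the methods the full version. The authors deposited log2 values after RMA normalization, which were used without further normalization, and the version of their software is not given in the sources used here. The table held 22690 rows. Leaving aside 64 control probe sets, 20380 had 1 gene symbol in the platform annotation, 691 had several and 1555 had none. Symbols were looked up in RefSeq through 20351 matched gene IDs and 0 changed.

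Rescued and knockout arrays were compared with limma 3.58.1 in R 4.3.3 (lmFit and eBayes), two-sided, with the cell line as a block, with Benjamini-Hochberg adjustment across the 22626 probe sets and calls at an adjusted p under 0.05. The methods name SAM and do not say whether it was paired. Pairing by line was used because both arrays of a line share their cells of origin. After subtraction of group means the arrays of a line correlated at 0.623 to 0.811, with all 8 arrays correlating best with the other array of their line. No filter on signal was applied. The fit was tested on simulated data. Arrays give no molecule counts, so their number limits the precision. Intervals are 95% intervals of the fit.

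The genes, lists, tests and the contrast of line 84 were chosen with earlier results of these data known. From each pathway list the 4 genes with the smallest p are named, and likeness is given for genes whose SD exceeds the median, except that a neighbour of Ncf1 is not reported here. Promoters come from RefSeq, build GRCm38.p6. The alternatives were no block, the methods' t-test, quantile normalization, median centring, array weights, a filter on the dimmest 40%, a robust fit with a variance trend, the false discovery rate of the methods, averaging the probe sets of a gene and leaving out each line. Leaving out either array of a line equals leaving out the line when the line is a block.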

Additional observations from a re-analysis of the deposited data

Results flagged for a closer look

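Of 99 groups of 4 values examined (rescued levels, knockout levels and line differences of the oxidase probe sets and the named pathway genes), 11 held a value far from the other 3. A chance rate of about 5% holds for independent groups picked without sight of the data. These groups share arrays, and the pathway genes were picked by smallest p, so the 11 cannot be set against that rate. All 11 were among knockout levels, and 10 of them were the knockout array of line 84. For the oxidase genes these were Cyba at 12.77 (13.14 to 13.19 in the other knockout arrays), the Ncf1 probe sets at 10.73 (11.26 to 11.33) and 8.62 (9.30 to 9.42), and the Rac1 probe set 1423734_at at 11.83 (12.12 to 12.15). In the pathway lists Hvcn1 was at 8.58, Gsr at 11.45 and H6pd at 10.01, each below the other 3 knockout arrays, and Prdx2 at 11.78, Pla2g4a at 10.64 and Bcr at 9.13, each above them. The remaining one was Plcb2, at 8.43 in the knockout array of line 6A, below the other 3 at 8.69 to 8.74. The genes share this array, so the values are not independent of one another.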

How the results depend on the processing

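No oxidase probe set passed under any alternative run, and the lowest adjusted p among them was 0.145. The direction of 8 of the 9 held throughout, and only the dim Rac1 probe set (1437674_at) changed sign: with single lines left out its difference ran from -0.088 to 0.0156 (the positive value without line 6D). The number of all probe sets called was 4 in the paired fit. It was 0 with no replicate block (583 higher and 491 lower at an unadjusted p under 0.05 in limma), 0 in the methods' t-test after Benjamini-Hochberg (617 and 562 before it), 8 without the dimmest 40% of probe sets, 25 with array weights, 32 with a variance trend and robust settings, 18 at the false discovery rate of the methods, and 0 to 0 without any single line (1684 and 1550 at an unadjusted p under 0.05 without line 84). The 3 oxidase probe sets with an unadjusted p under 0.05 became 5 with median centring, 6 with a variance trend and robust settings, 4 without the dimmest 40%, and 2 with no replicate block, in the methods' t-test or without line 6A. Over all probe sets, 1396 were higher at this threshold in the paired fit, 1621 with median centring and 1392 with a variance trend and robust settings. The number was 1043 without the dimmest 40% and 775 without line 6A. The 7 called in the contrast of line 84 became 3 with array weights and 3 to 5 without one of the other lines. Over all probe sets the calls in this contrast fell as well, from 6217 to 2913 with array weights. They were 3811, 3482 and 3817 without line 6A, 6B and 6D. Complete separation of the groups, seen in 2 probe sets, was seen in 5 without line 84, a choice made after seeing the data. The cause of these changes was not tested. Each group holds 4 arrays, which limits how small a difference can pass over all probe sets.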

Other observations

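The likeness used for Cybb also gives neighbours of the other oxidase genes, as root mean square distances between mean-centred log2 levels over the 8 arrays. Nearest to Cyba were Atp6v0e, a subunit of the proton pump of acidic vesicles (0.028), Tnfrsf1a, a receptor for tumor necrosis factor (0.031), and Tbc1d20, a GTPase-activating protein for Rab proteins (0.034). Among the genes nearest to Ncf1 were Clcn4, a chloride transporter (0.036), and Scly, selenocysteine lyase (0.043). Ncf4 was nearest to Cdk2ap2 (0.036), Arhgap1 (0.047) and Mtmr3, a phosphoinositide phosphatase (0.047). Rac1 was nearest to Copg2, a subunit of the coat of Golgi vesicles (0.028), Arpc5, a subunit of the actin-nucleating complex (0.033), and Racgap1, a GTPase-activating protein for Rac (0.033). Rac2 was not compared, because its SD was under the median of all genes. The distances were computed over 12392 genes on 8 arrays that come in pairs, and they are a description with no test.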
